A study of Mus musculus with 56 samples.

Results

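The genes described here are 9 components of the insulin receptor pathway in mouse heart: the receptors Insr and Igf1r, the receptor substrates Irs1 and Irs2, the phosphoinositide 3-kinase (PI3K) subunit Pik3r1, the PI3K inhibitor Pik3ip1, the kinases Akt1 and Akt2, and the adaptor Grb10. They were taken by symbol from the 22864 genes listed for the heart, and all 9 were among the 13889 genes that passed the filter on low values (a mean of at least 1 TPM over all libraries, TPM being reads per exon length scaled to the same total in each library). The hearts came from C57BL/6J females, 9 weeks old, of a common inbred strain, on a cycle of 12 h light and 12 h dark. For 7 days food was offered only in the light phase (daytime-restricted feeding, DRF) or only in the dark phase (nighttime-restricted feeding, NRF, the reference, since mice are nocturnal), and sampling covered 7 zeitgeber times (ZT, counted in hours from lights on), every 4 h between ZT0 and ZT24. There were 14 groups of 4 libraries, so 56 in all. The labels give no genotype other than the strain, and they do not say whether a library came from 1 heart, so the p values measure the spread between libraries.

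Insulin is released when food is eaten. It binds the insulin receptor, a tyrosine kinase that phosphorylates the substrates IRS1 and IRS2, which recruit PI3K and so activate AKT. In heart muscle AKT promotes glucose uptake and protein synthesis, and it inhibits the FOXO transcription factors. The comparisons set transcript levels of the pathway against the hours of food and the light cycle.

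Whole reads were recovered from the deposited values, from 29.3 M to 53.0 M per library with a median of 37.4 M. The fewest reads in any library were 269 for Irs2, 375 for Irs1 and 810 for Igf1r, and 5867 for Akt1, so counting error was largest for Irs2. All 7 cardiomyocyte markers were present in the libraries, with a summed level of 24016 to 38001 TPM. Markers of atrial tissue varied widely between libraries, from 95.2 to 5498 TPM in sum, with a median of 610.4 TPM under NRF and 1808 TPM under DRF, and so did erythroid markers, from 1688 to 67527 TPM, with medians of 7144 and 7286 TPM.

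A pair of libraries went against their labels. Over 1089 genes with a different rhythm between regimens (adjusted p under 0.001, members left out), each library was compared with the mean of every group, its own value left out. The library labelled DRF ZT4 replicate 1 correlated at -0.21 with its own group and at 0.82 with NRF ZT8, and the library labelled NRF ZT8 replicate 1 at -0.14 with its own group and at 0.72 with DRF ZT4. Dbp, a clock output gene, stood at 119 TPM in the first of these against 17.7 to 37.8 TPM in the 3 others of its group, and at 20.1 TPM in the second against 118 to 159 TPM. Arntl, a core clock gene that peaks opposite to Dbp, was at 1.96 TPM in the first against 5.82 to 7.24 TPM, and at 6.00 TPM in the second against 0.89 to 1.93 TPM. Both libraries were kept under their labels, and the calls that change without them are given in both ways, an alternative chosen after the data were seen. Of the 56 libraries, 46 were nearest to their own group and 5 to the same regimen at the other end of the day (ZT0 and ZT24 exchanged). Besides the 2 described, 3 were nearest to another group, with a correlation of 0.57 to 0.65 to their own and 0.63 to 0.66 to the nearest.

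The members differed in abundance, and only Akt1 and Akt2 were separate from all others in every library. Akt1 was highest at 136 ± 20.03 TPM (SD, n = 56), and its lowest library, at 95.8 TPM, lay above the highest library of Akt2 at 83.4 TPM. Akt2 averaged 68.9 ± 5.31 TPM, and its lowest library at 61.6 TPM lay above every library of the other 7 members. Pik3r1 (29.0 ± 7.20 TPM), Pik3ip1 (24.8 ± 8.18 TPM), Insr (23.1 ± 3.47 TPM) and Grb10 (22.5 ± 2.75 TPM) overlapped one another. Irs2 (6.14 ± 3.05 TPM), Igf1r (4.21 ± 0.622 TPM) and Irs1 (4.18 ± 0.992 TPM) had the lowest means and also overlapped, and Irs2 reached 19.55 TPM in 1 library, above the lowest libraries of Pik3ip1 (12.9 TPM), Insr (15.1 TPM) and Grb10 (16.6 TPM). Both AKT kinases were thus well above the receptors and substrates in transcripts per length, which says nothing of protein.

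The genes lie on several chromosomes (GRCm38). Insr spans chr8:3122061-3279617 and Irs2 chr8:10984681-11008458, both on the minus strand. Igf1r spans chr7:67952827-68233668 and Akt2 chr7:27591552-27640826, both on the plus strand. Irs1 spans chr1:82233101-82291416, Pik3r1 chr13:101680563-101768217, Akt1 chr12:112653821-112674884 and Grb10 chr11:11930508-12038683 on the minus strand, and Pik3ip1 spans chr11:3330401-3342971 on the plus strand. Insr, Irs1, Irs2 and Pik3ip1 overlap an annotated gene on the opposite strand, and since the library protocol does not state that strand was kept, reads from such a pair cannot be told apart. Exon lengths ran from 4098 bases (Akt1) to 16791 bases (Igf1r).

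The 250 bases before the transcription start are shown for the 5 members whose time courses the results turn on and whose window lies outside the gene in the annotation used for counting (RefSeq starts, GRCm38.p6, 5′ to 3′ on the strand of the gene). Capitals mark matches on either strand to 4 short motifs: the E-box CACGTG, bound by clock factors, the cyclic AMP response core TGACG, the nuclear receptor core AGGTCA, and the forkhead core TGTTTAC. RefSeq start sites were found for 8 of the 9 members, and for Insr none.
Irs1, chr1:82291440-82291689, minus strand: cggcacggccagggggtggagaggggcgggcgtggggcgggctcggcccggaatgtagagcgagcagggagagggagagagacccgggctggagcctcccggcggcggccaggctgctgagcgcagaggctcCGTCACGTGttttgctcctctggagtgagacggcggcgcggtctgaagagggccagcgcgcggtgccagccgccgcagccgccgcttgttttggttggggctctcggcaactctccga
Irs2, chr8:11008930-11009179, minus strand: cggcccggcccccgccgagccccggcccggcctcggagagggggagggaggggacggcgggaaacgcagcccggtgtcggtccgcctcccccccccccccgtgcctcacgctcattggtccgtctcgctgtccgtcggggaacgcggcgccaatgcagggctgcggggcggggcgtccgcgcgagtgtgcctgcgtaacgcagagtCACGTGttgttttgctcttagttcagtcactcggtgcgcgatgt
Igf1r, chr7:67952007-67952256, plus strand: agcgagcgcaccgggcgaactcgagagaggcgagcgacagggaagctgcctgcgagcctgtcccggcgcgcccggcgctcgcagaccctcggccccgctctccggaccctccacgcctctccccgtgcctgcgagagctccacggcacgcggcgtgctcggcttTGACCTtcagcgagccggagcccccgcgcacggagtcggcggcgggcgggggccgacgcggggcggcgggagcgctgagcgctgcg
Pik3r1, chr13:101768218-101768467, minus strand: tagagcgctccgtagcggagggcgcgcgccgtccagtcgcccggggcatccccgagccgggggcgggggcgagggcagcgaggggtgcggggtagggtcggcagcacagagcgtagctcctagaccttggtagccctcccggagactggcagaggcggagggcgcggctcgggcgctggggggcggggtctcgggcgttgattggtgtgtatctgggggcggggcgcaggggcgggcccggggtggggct
Akt1, chr12:112674885-112675134, minus strand: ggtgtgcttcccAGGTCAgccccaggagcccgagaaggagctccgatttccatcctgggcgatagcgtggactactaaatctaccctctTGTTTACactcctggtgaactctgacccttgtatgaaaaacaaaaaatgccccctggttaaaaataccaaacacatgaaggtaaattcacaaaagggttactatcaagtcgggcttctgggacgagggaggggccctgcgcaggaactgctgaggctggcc
Both receptor substrates held an E-box, Irs1 at 115 bases and Irs2 at 44 bases before the start, and in Irs1 it overlaps a cyclic AMP core that begins 118 bases before the start. Of 32851 windows of this length before all annotated starts, 6.02% held the E-box, 17.8% the cyclic AMP core, 14% the nuclear receptor core and 3.17% the forkhead core. Igf1r held a nuclear receptor core at 86 bases, and the upstream start of Akt1 held a nuclear receptor core at 238 bases and a forkhead core at 161 bases. The window of the outer start of Pik3r1 held none of the 4. A match is a description of these letters and says nothing of binding.

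**Figure D1:**
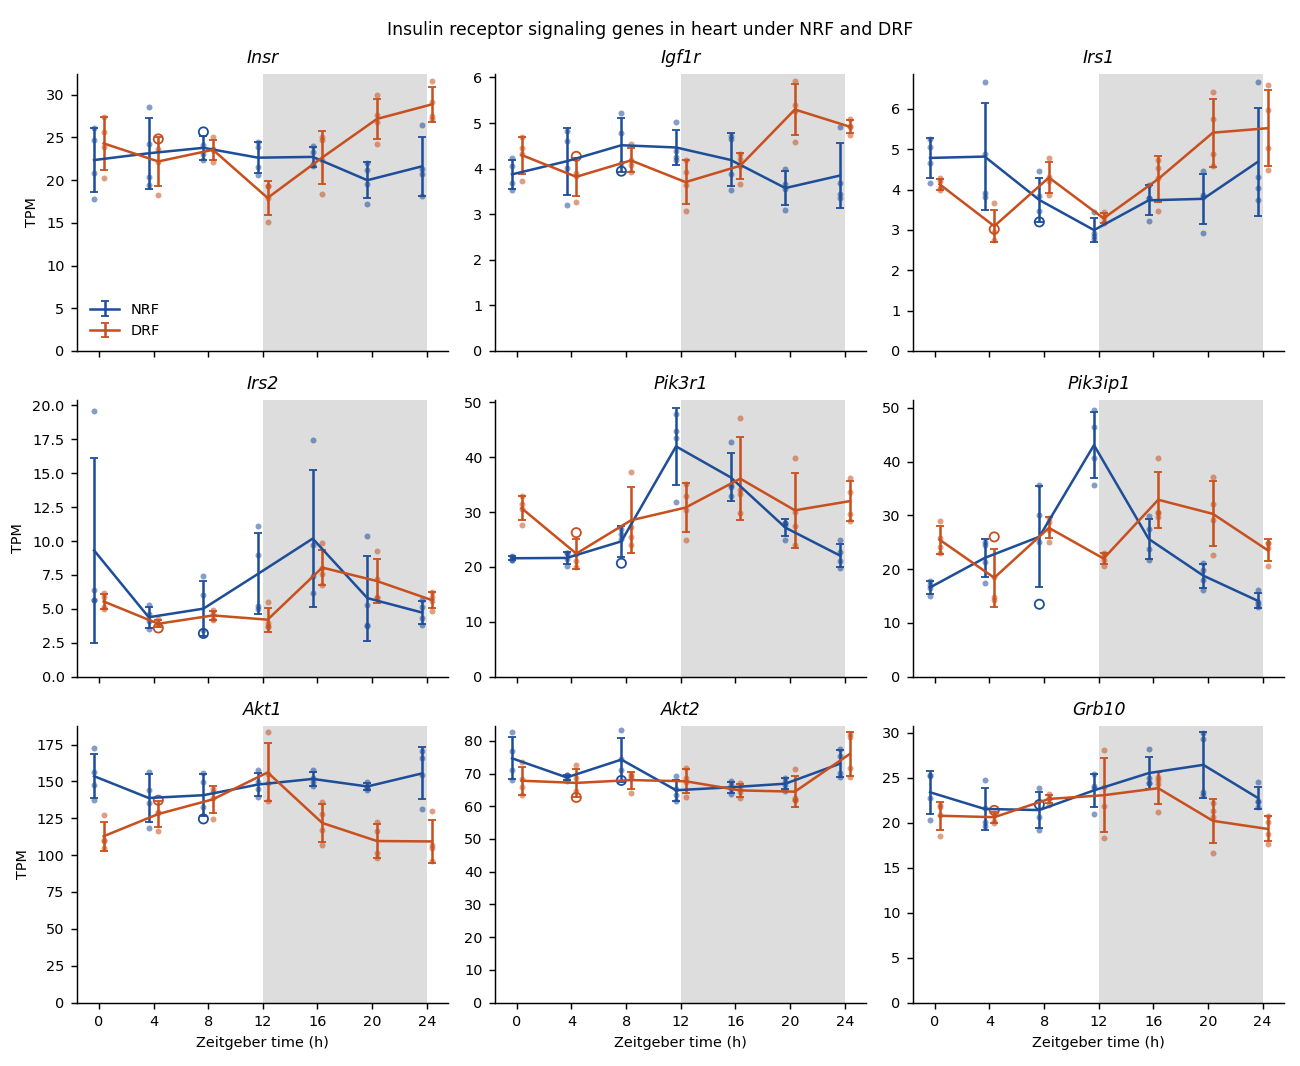
Level of each member in TPM (vertical axis, from 0) against zeitgeber time in hours, under NRF (blue) and DRF (orange). Points are libraries, lines join group means with SD bars (n = 4), grey marks the dark phase, and open circles are the libraries labelled DRF ZT4 replicate 1 and NRF ZT8 replicate 1. Akt1 under DRF falls below NRF at ZT0, ZT16, ZT20 and ZT24, while Pik3ip1 under NRF stands at 43.1 TPM at ZT12.

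The first comparison asked which members oscillated over 24 h under each regimen. Under NRF, the sharpest rhythms were those of the PI3K regulators. Pik3r1, the regulatory subunit that couples PI3K to the receptor substrates, was 47.8, 31.8, 43.5 and 44.7 TPM in the 4 libraries at ZT12 and between 19.8 and 24.8 TPM at ZT24. Pik3ip1, a membrane protein that inhibits the catalytic subunit, was 35.6, 49.7, 46.4 and 40.7 TPM at ZT12 against 16.1, 13.8, 13.6 and 12.9 TPM at ZT24. In both genes no library at ZT12 overlapped any library at ZT24. The fitted peak exceeded the trough 1.88-fold in Pik3r1 and 2.23-fold in Pik3ip1, with peaks at ZT14.2 and ZT11.7 (limma F test of a 24-h harmonic, adjusted p = 2.05e-08 and 3.83e-06).

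Of the other members, Irs1, Grb10, Akt2 and Igf1r also passed the test under NRF, with smaller peak to trough ratios of 1.38, 1.23, 1.12 and 1.18 (adjusted p = 0.00284, 0.00463, 0.0334 and 0.0414). Akt2 no longer passed without ZT0, ZT12, ZT16, ZT20 or ZT24 (adjusted p = 0.0724 to 0.163), Irs1 without ZT12 (0.0888), nor Grb10 and Igf1r with ZT as a factor in place of the harmonic (0.0933 and 0.321). That made 6 of 9 members, where 37.1% of all genes tested passed. These 6 passed again without the 2 libraries that went against their labels, where 42.8% of all genes did. Irs1 was lowest at ZT12, at 2.92, 2.85, 3.44 and 2.78 TPM, the hour at which Pik3r1 and Pik3ip1 were highest. Insr, Irs2 and Akt1 did not pass under NRF (adjusted p = 0.241, 0.135 and 0.315). Irs2 passed without ZT0 (adjusted p = 0.0176), without ZT20 (0.0447) and without NRF ZT0 replicate 4 (adjusted p = 0.0189), a library at 19.55 TPM where the 3 others of its group were at 5.62 to 6.43 TPM.

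Under DRF, 8 of 9 members passed, against 32.2% of all genes (the same 8 and 30% without the 2 libraries), and Akt2 did not (adjusted p = 0.304). Irs2 led by peak to trough ratio of TPM + 1 at 1.76 (peak at ZT18.5, adjusted p = 4.03e-05), followed by Pik3ip1 at 1.47, Akt1 at 1.38, Irs1 at 1.37, Pik3r1 at 1.35 and Insr at 1.34. This order need not hold in TPM, where the ratio of a low gene such as Irs1 is larger. Akt1, the more abundant AKT kinase, was 137, 149, 155 and 183 TPM at ZT12 and 95.8, 107, 105 and 129.7 TPM at ZT24, so these groups did not overlap (adjusted p = 0.00011). Insr ran the other way, at 19.3, 19.4, 15.1 and 17.9 TPM at ZT12 and 31.6, 27.1, 29.2 and 27.5 TPM at ZT24, also with no overlap (adjusted p = 0.00344). Leaving out 1 time ended the DRF calls of 6 members. Without ZT12 these were Insr (adjusted p = 0.133), Irs1 (0.0706), Pik3r1 (0.0507) and Igf1r (0.0504). Igf1r was also lost without ZT20 or ZT24, Irs1 without ZT20, Pik3r1 without ZT4 or ZT16, Pik3ip1 without ZT4, ZT16 or ZT20 and Grb10 without ZT8, ZT16 or ZT24 (adjusted p = 0.0515 to 0.447). Grb10 was lost with ZT as a factor too (0.103). With the means of the fibroblast, adipocyte and atrial marker lists as covariates, Irs1 (adjusted p = 0.114), Pik3r1 (0.193) and Pik3ip1 (0.0773) no longer passed under DRF, and Igf1r (0.247) no longer passed under NRF.

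Whether a rhythm differed between regimens was tested directly. It differed in 7 of 9 members, against 27.5% of all genes. These were Akt1 (adjusted p = 7.66e-05), Pik3ip1 (8.33e-05), Igf1r (0.000448), Pik3r1 (0.00132), Insr (0.00202), Grb10 (0.0155) and Irs1 (0.0386). Without ZT12 the difference no longer passed in Insr (adjusted p = 0.0677), Pik3r1 (0.115) and Irs1 (0.0688), and Irs1 was also lost without ZT0, ZT4 or ZT20. Grb10 was lost without ZT8 (adjusted p = 0.119) or ZT20 (0.124) and with ZT as a factor (0.127). For Irs2 and Akt2 no difference was detected (adjusted p = 0.473 and 0.797), with 95% intervals of the phase shift of -0.79 to 5.24 h and -4.78 to 4.48 h. Without the 2 libraries that went against their labels 6 members passed, since Irs1 had an adjusted p of 0.0531, and Pik3ip1 reached 1.93e-07.

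**Figure D2:**
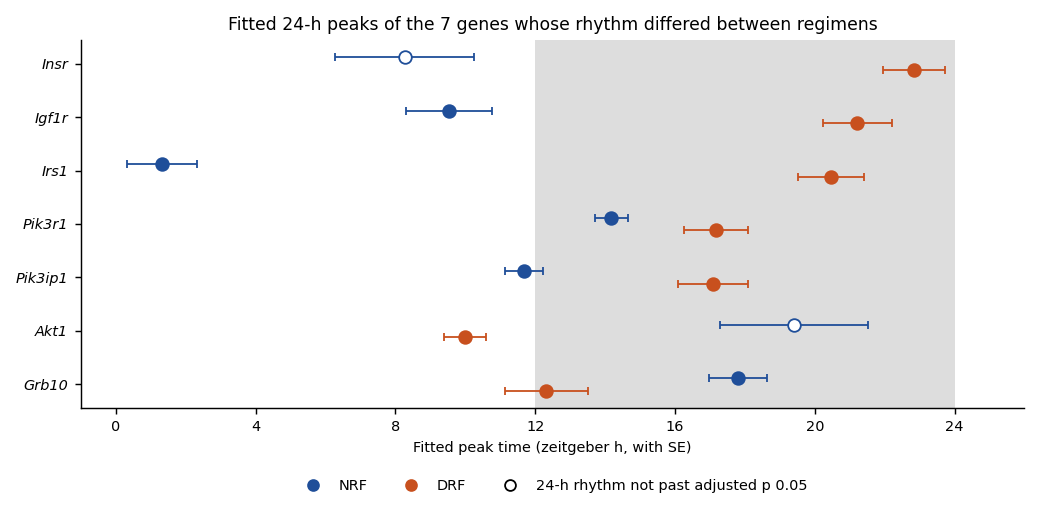
Fitted time of the 24-h peak in zeitgeber hours (horizontal axis, bars are SE) under NRF (blue) and DRF (orange) for the 7 members whose rhythm differed between regimens. Open points did not pass the rhythm test under that regimen. Igf1r moves from ZT9.53 to ZT21.2, whereas Pik3r1 moves from ZT14.2 to ZT17.2.

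The phase of the members moved by different amounts. Igf1r, the receptor for insulin-like growth factors, peaked at ZT9.53 under NRF and ZT21.2 under DRF, a shift of 11.7 h (95% interval 8.51 to 14.9 h), which lies within the phase-inverted class of 8 to 12 h. Its NRF rhythm was close to the threshold and no longer passed when any time but ZT4 was left out (adjusted p = 0.0555 to 0.174). Pik3r1 moved by 3.00 h (0.93 to 5.07 h), within the phase-locked class of 0 to 4 h, although its interval crossed the limit. Pik3ip1 was later under DRF by 5.40 h (3.12 to 7.68 h), and Irs1 and Grb10 were earlier, with shifts of -4.84 h (-7.60 to -2.08 h) and -5.49 h (-8.38 to -2.59 h). These 5 were the members that passed under both regimens (17.5% of all genes did). For Insr and Akt1 the fitted shifts were -9.44 h and -9.42 h, but neither passed under NRF, so no phase class was given to them. Akt1 did pass under NRF with median-of-ratios rescaling (adjusted p = 0.0287). The shifts without the 2 libraries were 11.8 h in Igf1r, 3.31 h in Pik3r1, 5.88 h in Pik3ip1, -4.80 h in Irs1 and -5.42 h in Grb10, each in the same class.

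Amplitude, the fitted peak minus the mean in log2(TPM + 1), also differed. It was 0.30 ± 0.11 lower under DRF in Pik3ip1 (0.58 under NRF and 0.28 under DRF) and 0.24 ± 0.08 lower in Pik3r1 (0.46 and 0.22), where the errors are SE. In Akt1 it was 0.17 ± 0.05 higher under DRF (0.06 and 0.23). In Insr, Igf1r, Irs1 and Grb10 the difference was at most 0.12 with an SE of 0.05 to 0.08. The amplitudes under NRF and DRF without the 2 libraries were 0.64 and 0.30 in Pik3ip1, 0.46 and 0.22 in Pik3r1 and 0.05 and 0.23 in Akt1. These values are estimates, and the test of the whole rhythm is the one given above.

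The second comparison set DRF against NRF at each ZT. A total of 17 of 63 member comparisons passed, most of them at ZT20 and ZT24. At ZT20, the last time sampled in the dark before lights on, 6 of 9 members differed, against 15% of all genes. Insr, Igf1r, Irs1 and Pik3ip1 were higher under DRF, the fasted group at that hour, and Akt1 and Grb10 were lower. Of all genes, 3.36% were higher and 11.7% lower at ZT20.

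At ZT20 Igf1r was 5.27, 4.58, 5.40 and 5.93 TPM under DRF and 3.99, 3.67, 3.08 and 3.56 TPM under NRF. The groups did not overlap, and the difference was 0.46 ± 0.10 in log2(TPM + 1) (SE, adjusted p = 0.00101). Insr was 27.6, 24.3, 26.9 and 29.9 TPM under DRF against 21.2, 22.0, 17.3 and 19.5 TPM, again with no overlap (0.43 ± 0.11, adjusted p = 0.00805). Irs1 was 6.43, 4.88, 4.59 and 5.75 TPM against 3.82, 4.46, 2.94 and 3.88 TPM (0.43 ± 0.12, adjusted p = 0.0147), a call that was lost without DRF ZT20 replicate 1 or NRF ZT20 replicate 3. Pik3ip1 was 37.2, 29.1, 32.2 and 22.7 TPM against 21.2, 16.1, 19.8 and 18.1 TPM (0.65 ± 0.17, adjusted p = 0.00732). Akt1 was 116, 97.9, 101 and 123 TPM against 146, 149.9, 146 and 144 TPM, so every DRF library was below every NRF library (-0.42 ± 0.09, adjusted p = 0.00186). Grb10, an adaptor that binds the receptors and limits their signal, was 20.7, 16.6, 22.2 and 21.3 TPM against 29.3, 29.9, 23.1 and 23.5 TPM, with no overlap (-0.37 ± 0.09, adjusted p = 0.00592).

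At ZT24, when the lights came on, 5 members differed (8.87% of all genes): Insr, Igf1r, Pik3r1 and Pik3ip1 were higher under DRF and Akt1 was lower. At ZT0, the same clock time 1 day earlier, 3 differed (11.5% of all genes), with Pik3r1 (0.49 ± 0.13) and Pik3ip1 (0.59 ± 0.17) higher and Akt1 lower (-0.44 ± 0.09, with adjusted p = 0.00989, 0.0168 and 0.00129). The call of Pik3ip1 at ZT0 was lost without DRF ZT0 replicate 1 or NRF ZT0 replicate 3. The differences of Insr and Igf1r at ZT0, both 0.12 with SEs of 0.11 and 0.10, did not pass. At ZT24 the call of Insr (0.41 ± 0.11, adjusted p = 0.0157) was lost without DRF ZT24 replicate 1 or NRF ZT24 replicate 3, and that of Igf1r (0.30 ± 0.10, adjusted p = 0.0394) without any 1 of 7 libraries.

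At ZT12 the PI3K regulators were lower under DRF, and 2 members passed (7.6% of all genes). Pik3ip1 was 22.9, 21.8, 22.6 and 20.7 TPM under DRF, below all 4 NRF libraries of 35.6 to 49.7 TPM (-0.93 ± 0.17, adjusted p = 0.000664). Pik3r1 differed by -0.43 ± 0.13 (adjusted p = 0.0337), but its groups overlapped, since DRF reached 35.1 TPM and NRF fell to 31.8 TPM, and the call was lost without DRF ZT12 replicate 3 or 4 or NRF ZT12 replicate 1, 3 or 4. At ZT16 only Akt1 passed (-0.32 ± 0.09, adjusted p = 0.0302), where 6.77% of all genes did, and the call was lost without DRF ZT16 replicate 3 or 4 or NRF ZT16 replicate 2, 3 or 4. With the 3 marker lists as covariates neither Pik3r1 at ZT12 (adjusted p = 0.0993) nor Akt1 at ZT16 (0.143) passed.

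At ZT4 and ZT8 no member passed by limma, where 0.446% and 0.389% of all genes did. At an unadjusted p under 0.05 there was 1 member at ZT4 and 0 at ZT8, and with limma voom on the recovered reads 1 and 0 passed. Irs1 at ZT4 was near the threshold (-0.49 ± 0.12, adjusted p = 0.0534) and passed without any 1 of 10 libraries. These are the times of the 2 libraries that went against their labels. Without them Irs1 (-0.48, adjusted p = 0.0326) and Pik3ip1 (-0.45, adjusted p = 0.049) were lower under DRF at ZT4, and 3.46% of all genes passed there. At ZT8 the count stayed at 0 of 9 members without them, while 3.59% of all genes passed.

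The third comparison asked whether levels differed between fed and fasted hearts once light phase and regimen were balanced. Fed groups were DRF ZT4 and ZT8 with NRF ZT16 and ZT20, and fasted groups were DRF ZT16 and ZT20 with NRF ZT4 and ZT8, 16 libraries each. The labels give when food was offered, not when it was eaten. This contrast combines the DRF minus NRF differences at ZT4, ZT8, ZT16 and ZT20. It is therefore not independent of the second comparison. Those differences were -0.09, -0.09, -0.03 and 0.46 in Igf1r, where ZT20 weighed most, and -0.49, 0.16, 0.15 and 0.43 in Irs1. Of the 9 members 4 differed, against 9.84% of all genes. In the fed groups 3 members were lower and 1 was higher, where 2.85% and 6.98% of all genes were. The median difference over all genes was 0.03. Pik3ip1 was lower by 0.28 ± 0.08 (adjusted p = 0.0276), Irs1 by 0.22 ± 0.06 (adjusted p = 0.0135) and Igf1r by 0.15 ± 0.05 (adjusted p = 0.0335), and Akt1 was higher by 0.15 ± 0.05 (adjusted p = 0.0302). None of these 4 passed at an adjusted p under 0.01. Of the marker genes of other cell types 1 differed, an endothelial gene that was lower in the fed groups.

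In Pik3ip1 the fed libraries ran from 14.2 to 29.5 TPM under DRF and from 16.1 to 29.8 TPM under NRF, and the fasted libraries from 22.7 to 40.8 TPM and from 13.5 to 35.6 TPM. The ranges overlapped. The lowest fasted library was the one labelled NRF ZT8 replicate 1. Without it and DRF ZT4 replicate 1, the fed and fasted difference of Pik3ip1 was -0.39 (adjusted p = 2.34e-05), of Irs1 -0.24 (0.00858) and of Igf1r -0.18 (0.0105), while Akt1 no longer passed (0.13, adjusted p = 0.0643), and 14.9% of all genes passed. Irs2, Pik3r1 and Akt2 had fed and fasted differences of -0.07 ± 0.13, 0.03 ± 0.06 and -0.02 ± 0.03, and Insr and Grb10 of -0.12 ± 0.06 and 0.12 ± 0.05, none past the threshold by limma on log2(TPM + 1). Grb10 did pass with limma voom (adjusted p = 0.0377), with array weights (0.018) and with the marker lists as covariates (0.0446). The calls of Igf1r and Pik3ip1 were lost without any 1 of 10 and 7 libraries respectively, those of Pik3ip1 being DRF ZT4 replicates 3 and 4, DRF ZT20 replicate 1, NRF ZT8 replicates 3 and 4, NRF ZT16 replicate 4 and NRF ZT20 replicate 2. That of Akt1 was lost without DRF ZT16 replicate 4, DRF ZT20 replicate 2, NRF ZT4 replicate 3 or NRF ZT8 replicate 2.

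The fourth comparison set dark against light groups (ZT16 and ZT20 against ZT4 and ZT8 over both regimens, 16 libraries each), with feeding state balanced. Irs2 rose the most, by 0.63 ± 0.13 in the dark (adjusted p = 0.00024), followed by Pik3r1 at 0.40 ± 0.06 (adjusted p = 5.29e-06) and Grb10 at 0.14 ± 0.05 (adjusted p = 0.0175). Akt2 was lower in the dark by 0.08 ± 0.03 (adjusted p = 0.0297). Thus 4 of 9 members differed, against 34.1% of all genes, 3 of them higher and 1 lower, where 7.75% and 26.4% of all genes were. The median difference over all genes was -0.05. Without the 2 libraries Pik3ip1 was also higher (0.17, adjusted p = 0.0383, against 0.19 ± 0.08 and 0.0715 with them), as it was with limma voom (0.039), median-of-ratios rescaling (0.0106), array weights (0.0197) and the marker lists as covariates (0.0254), and without the 2 libraries 35.9% of all genes passed in place of 34.1%. Akt2 was lost with limma voom, with median-of-ratios rescaling and with the marker lists as covariates (adjusted p = 0.059, 0.551 and 0.175). Its call was also lost without DRF ZT4 replicate 2 or NRF ZT8 replicate 4. Some markers of other cell types were lower in the dark, namely 3 of 5 mural, 2 of 5 fibroblast and 1 of 5 endothelial genes, and with 3 marker lists as covariates the differences were 0.79 in Irs2, 0.38 in Pik3r1 and 0.21 in Grb10, all past the threshold.

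Irs2 in the dark groups was 6.73, 7.57, 9.85 and 8.03 TPM at DRF ZT16 and 6.17, 7.43, 17.4 and 9.70 TPM at NRF ZT16. In the light groups it was 3.59, 4.25, 3.88 and 3.90 TPM at DRF ZT4 and 3.49, 4.11, 4.62 and 5.31 TPM at NRF ZT4. At ZT16 every library of either regimen was above every library at ZT4. The other times of the contrast were less separated, since Irs2 was 3.79, 3.73, 5.28 and 10.4 TPM at NRF ZT20 against 3.19, 3.45, 6.02 and 7.40 TPM at NRF ZT8, which overlap, while DRF ZT20 (5.81 to 9.24 TPM) lay above DRF ZT8 (4.17 to 4.90 TPM). Pik3r1 was likewise 29.8 to 47.1 TPM at DRF ZT16 and 33.0 to 42.8 TPM at NRF ZT16, against 20.01 to 26.2 TPM and 20.1 to 22.6 TPM at ZT4, but overlapped between ZT20 and ZT8, at 23.9 to 39.9 TPM against 23.9 to 37.2 TPM under DRF and 24.9 to 28.1 TPM against 20.7 to 26.9 TPM under NRF. In Irs1 and Igf1r, in contrast, the fed and fasted difference passed and the dark and light difference (0.09 ± 0.06 and 0.02 ± 0.05) did not, although that of Irs1 passed with array weights (0.13, adjusted p = 0.0462). Whether the 2 differences were unequal within a gene was not tested.

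**Figure D3:**
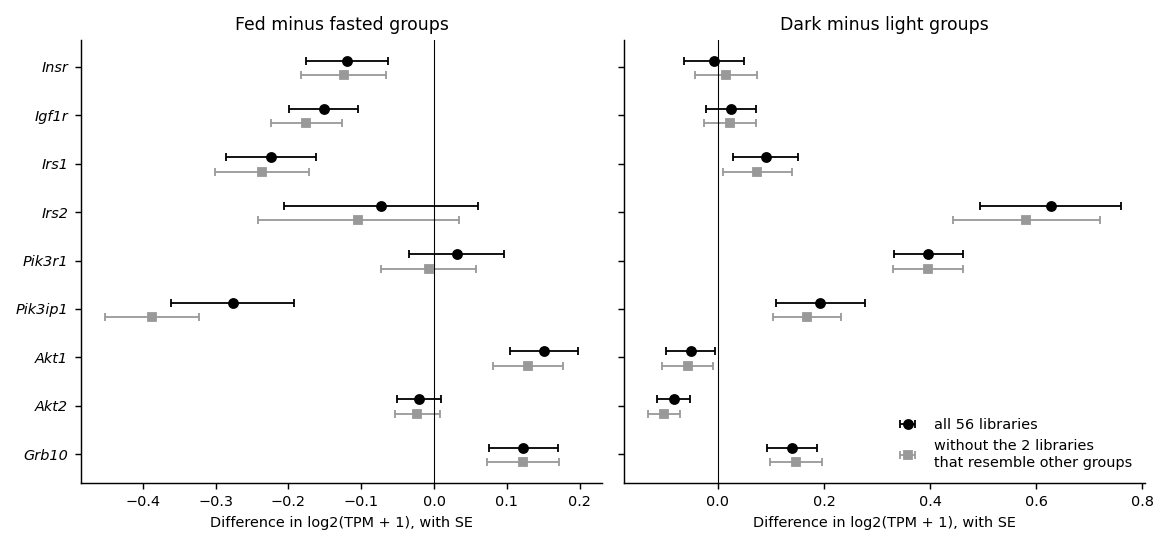
Difference between fed and fasted groups (left) and between dark and light groups (right) for each member in log2(TPM + 1), with SE bars, for all 56 libraries (black) and without the libraries labelled DRF ZT4 replicate 1 and NRF ZT8 replicate 1 (grey). Irs2 and Pik3r1 lie at 0.63 and 0.40 on the right and near 0 on the left.

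The same libraries were then aligned by hours since food was offered, so that DRF ZT4 meets NRF ZT16 and so on. These contrasts use the libraries of the ZT comparisons again and are not independent of them. A difference in mean level between regimens also enters them, and a comparison that did not pass does not show that the regimens coincide. Of 54 member comparisons 17 passed by limma on log2(TPM + 1). With limma voom 6 members in place of 4 passed at 0 h and 5 in place of 3 at 20 h, and the counts at the other times were the same. When food was given, Irs1 was higher under DRF (0.53 ± 0.11, adjusted p = 0.000433), while Pik3ip1 (-0.78 ± 0.15, adjusted p = 0.00016), Akt1 (-0.42 ± 0.08, adjusted p = 0.000301) and Pik3r1 (-0.40 ± 0.11, adjusted p = 0.0128) were lower, against 13% of all genes. The DRF side at 0 h is the mean of ZT0 and ZT24, which differed in Irs1, at 3.99 to 4.30 TPM and 4.48 to 6.59 TPM. At 4 h Irs2 (-1.09 ± 0.27, adjusted p = 0.00645), Pik3r1 (-0.67 ± 0.13, adjusted p = 0.000458) and Grb10 (-0.29 ± 0.09, adjusted p = 0.0484) were lower under DRF (6.39% of all genes). Without the 2 libraries Grb10 did not pass at 4 h (adjusted p = 0.0599) and Pik3ip1 did (-0.66, adjusted p = 0.000988). The call of Irs2 at 4 h was lost without NRF ZT16 replicate 3, and that of Grb10 without any 1 of 33 libraries.

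At 8 h Pik3ip1 alone passed, higher under DRF (0.54 ± 0.17, adjusted p = 0.0476, where 5.48% of all genes passed), a call lost without any 1 of 29 libraries although the adjusted p was 0.00424 without the 2 that went against their labels. At 12 h Irs1 was lower (-0.41 ± 0.11, adjusted p = 0.00924) and Pik3r1 and Pik3ip1 were higher (0.47 ± 0.11 and 0.50 ± 0.15, adjusted p = 0.00376 and 0.0209, against 9.81% of all genes). At 16 h Irs2, Pik3r1 and Pik3ip1 were higher under DRF (0.75 ± 0.27, 0.69 ± 0.13 and 0.56 ± 0.17, adjusted p = 0.0362, 0.000138 and 0.014, against 22.6%). At 20 h Irs1 was higher (0.43 ± 0.12, adjusted p = 0.00903) and Akt1 and Akt2 were lower (-0.36 ± 0.09 and -0.20 ± 0.06, adjusted p = 0.00476 and 0.0148, against 24.1%). Leaving out 1 library ended some of these calls: Irs2 at 16 h without any 1 of 6, Pik3ip1 at 16 h without DRF ZT16 replicate 1 or NRF ZT4 replicate 1, Pik3ip1 at 12 h without DRF ZT12 replicate 1, 2 or 3, Irs1 at 20 h without DRF ZT20 replicate 1, and Akt2 at 20 h without DRF ZT20 replicate 1 or 2 or NRF ZT8 replicate 4. At 0 h the call of Pik3r1 was lost without NRF ZT12 replicate 1 or 3. Insr and Igf1r passed at none of the 6 food-matched times by limma on log2(TPM + 1) without covariates, with differences of -0.27 to 0.23 in Insr and -0.10 to 0.19 in Igf1r and SEs of 0.08 to 0.11. The smallest adjusted p of the 12 was 0.065, for Insr at 12 h, which passed without NRF ZT0 replicate 2 or NRF ZT24 replicate 3. With the 3 marker lists as covariates Igf1r passed at 20 h (0.39 ± 0.10, adjusted p = 0.0127), as did Pik3ip1 and Akt1 at 4 h (-0.54 and -0.28, adjusted p = 0.0328 and 0.03) and Grb10 at 16 h (0.34, adjusted p = 0.0323). In that fit Pik3r1 at 0 h (adjusted p = 0.0556), Irs1 at 12 h (0.0814), and Akt1 and Akt2 at 20 h (0.203 and 0.287) no longer passed.

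**Figure D4:**
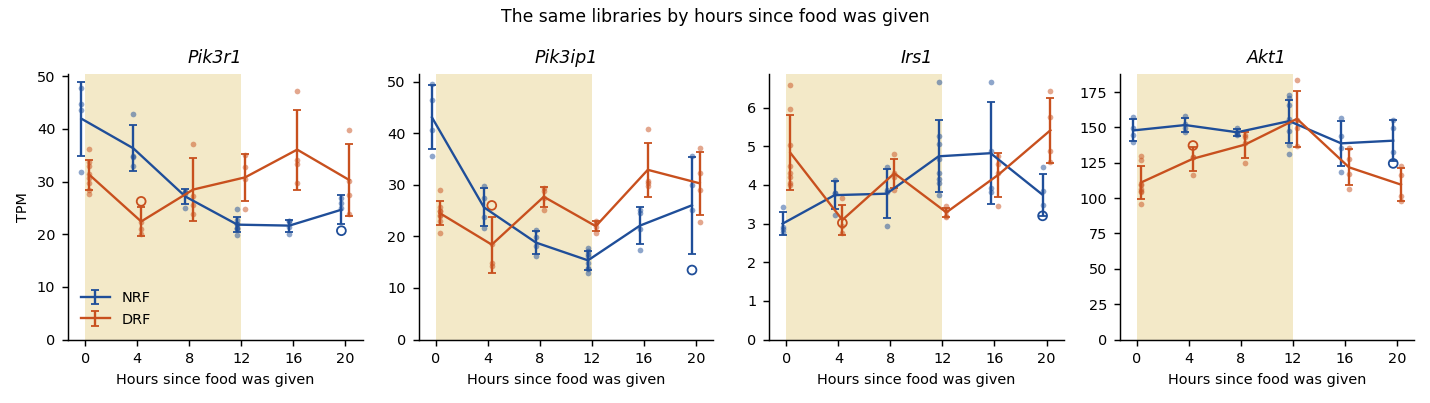
Levels of Pik3r1, Pik3ip1, Irs1 and Akt1 in TPM (vertical axis, from 0) by hours since food was given (horizontal axis), under NRF (blue) and DRF (orange). Points are libraries, lines join means with SD bars (n = 4, or 8 where ZT0 and ZT24 coincide), shading marks the hours with food, and open circles are the 2 libraries that went against their labels. The curves do not coincide, and Pik3r1 is lower under DRF at 0 and 4 h and higher at 12 and 16 h.

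The mean level over the 7 times was lower under DRF in Akt1, at 125 ± 19.8 TPM against 148 ± 12.5 TPM (SD, n = 28 libraries), and in Grb10, at 21.5 ± 2.44 TPM against 23.5 ± 2.70 TPM. On the log2 scale these were -0.25 ± 0.04 (SE, adjusted p = 3.74e-06) and -0.12 ± 0.04 (adjusted p = 0.00737). Grb10 no longer passed with median-of-ratios rescaling (adjusted p = 0.0538), without mitochondrially encoded genes (0.0884) or without ZT20 (0.0922). Pik3r1 (0.13 ± 0.05, adjusted p = 0.0412) and Pik3ip1 (0.18 ± 0.06, adjusted p = 0.0324) were higher, and 28.9% of all genes differed in mean level, but both failed to pass without the 2 libraries (adjusted p = 0.0862 and 0.0662) and with the marker lists as covariates (0.328 and 0.0896). The call of Pik3r1 was lost without any 1 of 20 libraries, and that of Pik3ip1 without DRF ZT4 replicate 1, DRF ZT20 replicate 1 or NRF ZT12 replicate 1. Limma voom called 6 members in place of 4, adding Insr and Igf1r as higher under DRF (adjusted p = 0.0444 and 0.0452), and both also passed with median-of-ratios rescaling (0.0142 and 0.00448). Of all genes 2.87% were higher and 26% lower under DRF. The median difference over all genes was -0.05, and median-of-ratios rescaling moved it by 0.05, so these shares can depend on the scaling. Some markers of other cell types were also lower: 4 of 5 endothelial, 4 of 5 leukocyte, 3 of 5 mural and 2 of 5 fibroblast genes were lower under DRF, the summed endothelial level having a median of 457 TPM under DRF and 506 TPM under NRF. The 4 atrial and 4 adipocyte markers had higher values under DRF, by 0.77 to 1.21 and 0.19 to 0.38, and none of the 8 passed (adjusted p = 0.0714 to 0.0813 in the atrial list). Fewer cells of a type and less RNA per cell cannot be told apart in whole hearts. With the marker lists of fibroblasts, adipocytes and atria as covariates the difference was -0.17 ± 0.04 in Akt1 (adjusted p = 0.016) and -0.03 ± 0.04 in Grb10 (adjusted p = 0.713), and the endothelial, leukocyte and mural lists were not tested in this way.

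Other genes of the pathway came from 5 lists, of which 63 of 69 genes passed the filter. Between fed and fasted groups 5 of the 63 passed, where 9.84% of all genes did, with Sh2b1, Crk, Pik3r3 and Socs2 higher and Pik3c3 lower. Sh2b1, an adaptor that enhances signaling by the insulin receptor, rose by 0.23 ± 0.04 (adjusted p = 0.000113), and Pik3c3, the class III kinase that acts in autophagy, fell by 0.21 ± 0.04 on the log2 scale (adjusted p = 0.000412). The others were Pik3r3 at 0.19 ± 0.05 (adjusted p = 0.0143), Socs2, a feedback inhibitor of growth hormone signaling, at 0.18 ± 0.05 (0.0255) and Crk at 0.13 ± 0.04 (0.0167). Of the 20 genes of the AKT branch 0 passed by limma, with 3 at an unadjusted p under 0.05 and 2 past the threshold with limma voom, and of 9 ligands, binding proteins and other receptors 0 passed by either tool, with 0 at an unadjusted p under 0.05. Without the 2 libraries Socs2 did not pass (adjusted p = 0.069), and the lists had 3 adaptors, 2 PI3K subunits, 2 genes of the AKT branch, 2 negative regulators and 0 ligands past the threshold, where 14.9% of all genes were.

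Between dark and light groups 16 of the 63 passed, where 34.1% of all genes did. Without the 2 libraries that went against their labels 7 adaptors passed in place of 3 and 3 ligands, binding proteins and receptors in place of 1, while the other lists kept their counts of 3 PI3K subunits, 3 genes of the AKT branch and 6 negative regulators, and 35.9% of all genes passed. Of the adaptors, Grb14, a relative of Grb10 that also inhibits the receptor, was lower in the dark (-0.31 ± 0.04, adjusted p = 8.63e-08), as was Sh2b1 (-0.12 ± 0.04, adjusted p = 0.0179). Grb10 and Grb14 thus passed in opposite directions. Of the AKT branch, Foxo3, a transcription factor inhibited by AKT, and Tsc1, a brake on mTOR, were higher (0.30 ± 0.06 and 0.15 ± 0.04, adjusted p = 0.000252 and 0.00241). Of the PI3K subunits Pik3cd, Pik3r3 and Pik3r2 were lower (-0.23 ± 0.07, -0.20 ± 0.05 and -0.18 ± 0.04, adjusted p = 0.0102, 0.00313 and 0.000633), whereas the member Pik3r1, also a regulatory subunit, was higher. Of 6 negative regulators that passed, 2 were higher and 4 lower. Among them Socs1 and Phlpp1 were lower (-0.25 ± 0.09 and -0.18 ± 0.05, adjusted p = 0.0333 and 0.00369). Of the ligand and receptor list Enpp1, an inhibitor of the insulin receptor, was lower (-0.16 ± 0.06, adjusted p = 0.0223).

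A different rhythm between regimens was found in 20 of the 63 genes, against 27.5% of all genes. By list these were 7 of 20 in the AKT branch, 5 of 11 adaptors, 4 of 14 negative regulators, 3 of 9 PI3K subunits and 1 of 9 ligands, binding proteins and receptors. The AKT branch had 8 without the 2 libraries, and the other lists had the same counts, where 30.5% of all genes passed.

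**Figure D5:**
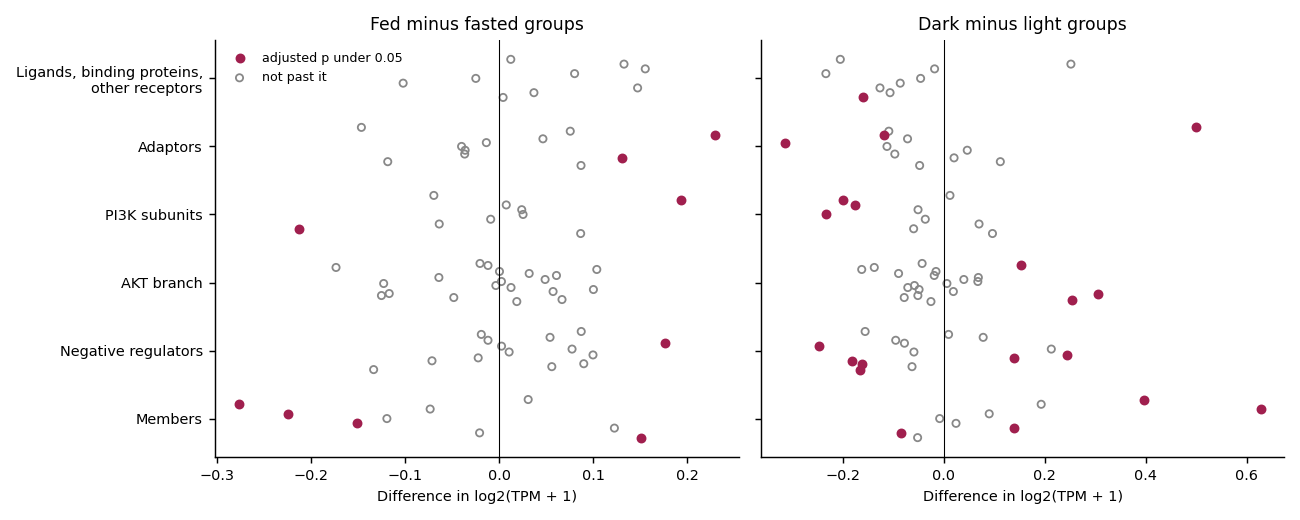
Difference between fed and fasted groups (left) and between dark and light groups (right) in log2(TPM + 1) (horizontal axes, different scales) for each tested gene of the 5 pathway lists and for the 9 members. Filled points passed an adjusted p of 0.05. Filled points number 5 and 16 in the lists, and 4 and 4 among the members.

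The genes whose 14 group means ran most like those of a member are given as a description, with Pearson's r over the 14 means of log2(TPM + 1). These means share a regimen and a time course, so high values are common. Closest to Pik3r1 were Rhobtb1 (0.98), Fam107a (0.97) and Zbtb16 (0.94), and closest to Pik3ip1 were Usp54 (0.95), Rhebl1 (0.94) and Klf9 (0.94). Insr ran most like Acss1 (0.92), Vldlr (0.91) and Atg13 (0.91), Igf1r like Pcmtd2 (0.93), Nceh1 (0.92) and Pdp2 (0.92), and Irs1 like Prox1 (0.92), Lcmt2 (0.89) and Alpk2 (0.88). Akt1 ran most like Ccnd2 (0.94), P2ry6 (0.94) and Ifitm2 (0.92), and Grb10 like Arhgap10 (0.92), Angptl1 (0.92) and Cgrrf1 (0.89). Among the members themselves, the receptors Insr and Igf1r ran together (0.88), as did Pik3r1 and Pik3ip1 (0.82), and Insr and Akt1 ran opposite (-0.76).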

How the data were processed

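PolyA RNA-seq values of 56 mouse heart libraries were analysed, 4 for each of 7 zeitgeber times under DRF and under NRF. The submitters' processing notes name HISAT2 2.0.5, featureCounts 1.5.0-p3 and the genome build mm10, with no molecular identifiers in the protocol. The deposited values, which the authors call TPM, were not linear TPM: each was a library constant multiplied by log2(1 + scaled reads) and divided by exon length. The design had allowed for this. The reads behind each value were solved for with 2 constants a library and exon lengths of GENCODE M21 (GRCm38). Among 1191957 values below 30000 reads, 99.9989% lay no more than 0.1 from a whole number, for all 9 members at the annotated length. Other lengths were searched for 821 genes, 31 abundant genes kept an untested length, and 10 genes were left out. Both the recovery and the models were tested on simulated data.

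TPM was recomputed from the reads, and the 13889 genes averaging 1 TPM or more were fitted on log2(TPM + 1), a scale that understates changes of low genes such as Irs1 and Igf1r, with limma 3.58.1 in R 4.3.3 (eBayes, trend = TRUE). Benjamini-Hochberg adjustment over all genes tested and a threshold of 0.05 were used. Rhythm was tested with cosine and sine terms of 24 h, in place of MetaCycle and CircaCompare, which were not used here. Phases, amplitudes and their SEs came from the fit of all 56 libraries by the delta method, and contrasts from a model of 14 group means. The 9 members and the gene lists were chosen with earlier results of these data known. Named were all members, up to 3 genes of each list with the largest fed and fasted and the largest dark and light difference past the threshold, and the 3 genes nearest in pattern to each member whose rhythm differed. Some genes that this rule names are not reported here. Libraries were grouped by their labels. No library duplicated another (0 pairs identical). Same-numbered replicates did not deviate together (median correlation 0.01), so the number was not used as a block. Read numbers include PCR copies, which cannot be told apart without molecular identifiers.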

Additional observations from a re-analysis of the deposited data

Results flagged for a closer look

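In 6 of 126 groups of 4 libraries, 1 library stood apart from the other 3 by more than Dixon's 95% critical value. Chance gives about 1 group in 20, which is about the share found. For Irs2 these were NRF ZT0 replicate 4, at 19.55 TPM against 5.62 to 6.43 TPM in the others, and DRF ZT12 replicate 4, at 5.52 TPM against 3.65 to 3.93 TPM. Pik3ip1 was 40.8 TPM in DRF ZT16 replicate 1 against 29.8 to 30.7 TPM, and Pik3r1 was 24.9 TPM in NRF ZT20 replicate 4 against 27.6 to 28.1 TPM. Akt2 was 71.5 TPM in DRF ZT20 replicate 4 against 61.9 to 62.4 TPM, and Grb10 was 28.2 TPM in NRF ZT16 replicate 2 against 24.4 to 25.0 TPM. Without NRF ZT0 replicate 4, Irs2 passed the rhythm test under NRF (adjusted p = 0.0189), as it did without ZT0 (0.0176) or ZT20 (0.0447).

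The 24-h rhythm differed between regimens by a direct test in 7 members (limma, adjusted over all genes tested), with adjusted p = 7.66e-05 for Akt1, 8.33e-05 for Pik3ip1, 0.000448 for Igf1r, 0.00132 for Pik3r1, 0.00202 for Insr, 0.0155 for Grb10 and 0.0386 for Irs1.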

How the results depend on the processing

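With all libraries the counts of members past the threshold were 6 (rhythm under NRF), 8 (rhythm under DRF), 7 (different rhythm), 4 (mean level), 17 (single ZTs), 17 (food-matched), 4 (fed and fasted) and 4 (dark and light), and no difference that passed the threshold changed direction when a single library was left out, without the 2 libraries that went against their labels or with the marker lists as covariates. Differences near 0 that did not pass did change sign. The labels' replicate numbers did not pair the libraries, and a fit with the replicate number as a block gave 6, 8, 7, 4, 17, 15, 4 and 4. At an adjusted p under 0.01 the counts fell to 4 for the NRF rhythm, 4 for the DRF rhythm, 5 for their difference, 2 for mean level, 11 at single ZTs, 10 food-matched, 0 fed and fasted, and 2 dark and light. With a mean of at least 5 TPM, which leaves out Irs1 and Igf1r, 2 passed between fed and fasted groups. Marker lists as covariates gave 5 for the DRF rhythm and 2 for mean level, the 2 being Akt1 and Igf1r, of which Igf1r had not passed before. Leaving out ZT12 left 3, 4 and 4 for the NRF rhythm, the DRF rhythm and their difference. The DRF rhythm count was 5 without ZT16 or ZT20, and the mean level count was 2 without ZT0 or ZT24 and 1 without ZT20. The mean level count rose by limma without ZT12, adding Insr (adjusted p = 0.0152) and Igf1r (0.0272), and without ZT4, adding Irs1 (0.0124). Leaving out each replicate number in turn, which removes 14 libraries, or the 2 libraries that went against their labels (chosen after seeing the data), or for rhythm and mean level NRF ZT0 replicate 4 (also chosen after seeing the data), or for single ZTs and food-matched groups any single library, gave 3 to 7 for the NRF rhythm, 4 to 8 for DRF, 5 to 7 for their difference, 1 to 4 for mean level, 7 to 19 at single ZTs, 9 to 18 food-matched, 0 to 3 fed and fasted, and 2 to 5 dark and light. Irs2 and Irs1 had the fewest reads in their lowest libraries, at 269 and 375. The libraries with the highest Irs2, NRF ZT0 replicate 4 and NRF ZT16 replicate 3, held 1912 and 2307 reads of it.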
